A study of Homo sapiens with 36 samples.

Results

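ADM2, KLHDC7B, PRDM16, PTPDC1, LAMP3, RPS6KA2, UNC5B, NMNAT2 and PLEKHH2 are 9 of the 60662 gene IDs counted in A549 cells, a human lung adenocarcinoma line, that were deprived of glucose. They were chosen by their measured counts: their rise in 0 mM glucose at 16 h, or their level there, was lower when ATF4 was silenced, and none belongs to amino acid metabolism. The siControl and siATF4 libraries of 16 h therefore chose them, and the values of those libraries are given as a description without a test. Each culture was transfected with 100 nM of a non-targeting siRNA (siControl) or of siRNA against ATF4 (siATF4) or ATF6 (siATF6). Cells then spent 6 or 16 h at 25 mM glucose (fed) or 0 mM (deprived). All groups had dialysed serum and glutamine. There are thus 12 groups of 3 biological replicates, or 36 poly(A) RNA libraries, all from 1 cell line with transient silencing.

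ATF4 is a transcription factor whose mRNA is translated more when eIF2 alpha is phosphorylated. That pathway is called the integrated stress response, and it is entered when amino acids run short or when unfolded protein builds up in the endoplasmic reticulum (ER). ATF4 is best known for turning on genes of amino acid synthesis and transport. ATF6 is an ER membrane protein that is cut under ER stress and then turns on chaperone genes, so siATF6 is a second knockdown within the same stress. The 9 genes have no common biochemical role. ADM2 encodes a secreted peptide of the calcitonin family and UNC5B a receptor for netrins. RPS6KA2 encodes the kinase RSK3, PTPDC1 a protein of the tyrosine phosphatase family, NMNAT2 an enzyme of NAD synthesis and LAMP3 a lysosomal membrane glycoprotein. PRDM16 is a zinc finger regulator of transcription known from brown fat and blood stem cells, KLHDC7B a kelch repeat protein, and PLEKHH2 a protein with pleckstrin homology and FERM domains.

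The 250 bases before a RefSeq start (GRCh38.p14) could be read for 6 of the 9 genes: ADM2, KLHDC7B, PTPDC1, RPS6KA2, NMNAT2 and PLEKHH2. They were searched on both strands for the core of the C/EBP-ATF response element that ATF4 binds (TGATGNAA), the cAMP response element (TGACGTCA), the core of the unfolded protein response element (TGACGTG) and the ER stress element (by its name alone), where N is any base. The window of ADM2 is shown because that gene had one of the widest ranges of level, and those of KLHDC7B and PTPDC1 because each held a match, in capitals. All 3 lie on the plus strand, at chr22:50481293-50481542, chr22:50545649-50545898 and chr9:94030563-94030812.
ADM2: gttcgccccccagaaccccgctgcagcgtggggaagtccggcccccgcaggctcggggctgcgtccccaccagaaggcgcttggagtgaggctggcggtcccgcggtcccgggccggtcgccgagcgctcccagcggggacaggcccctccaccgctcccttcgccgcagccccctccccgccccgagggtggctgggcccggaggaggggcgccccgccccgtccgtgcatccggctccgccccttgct
KLHDC7B: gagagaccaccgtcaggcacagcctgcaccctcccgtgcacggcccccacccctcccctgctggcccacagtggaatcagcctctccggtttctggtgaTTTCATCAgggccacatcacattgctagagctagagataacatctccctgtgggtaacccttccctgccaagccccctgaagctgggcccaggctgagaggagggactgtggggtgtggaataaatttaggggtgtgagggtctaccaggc
PTPDC1: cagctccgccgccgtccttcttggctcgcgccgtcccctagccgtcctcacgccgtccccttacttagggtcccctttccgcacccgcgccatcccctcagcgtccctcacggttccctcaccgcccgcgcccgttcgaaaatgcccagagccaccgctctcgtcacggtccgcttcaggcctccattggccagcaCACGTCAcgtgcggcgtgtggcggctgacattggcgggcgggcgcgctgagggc
The match in KLHDC7B is the C/EBP-ATF core on the opposite strand (TTTCATCA), which begins 151 bases before the start, and 3.14% of all 35116 windows hold that core. The match in PTPDC1 is the unfolded protein response core on the opposite strand (CACGTCA), 54 bases before the start, a motif held by 1.68% of windows. The cAMP response element (1.65% of windows) and the ER stress element (0.074%) were in none of the 11 windows of these genes. A match is a description of letters, and the absence of one says only that these letters are not in this window. In the deposited table ADM2 (ENSG00000128165.9) lies at chr22:50481543-50486440 and KLHDC7B (ENSG00000130487.9) at chr22:50545899-50551023, both on the plus strand, 59459 bases apart. The other 7 genes lie on chromosomes 1 (PRDM16 and NMNAT2), 2 (PLEKHH2), 3 (LAMP3), 6 (RPS6KA2), 9 (PTPDC1) and 10 (UNC5B). In GENCODE release 29, no exon base of 8 of the genes is shared with another gene, and for RPS6KA2 0.728% is.

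Of the 36 libraries, 35 held between 39.4 and 78.7 M counts. The remaining one, siATF4 in 0 mM at 6 h, replicate 3, held 2.87 M, had a highest correlation of -0.331 with any other library (log2 CPM over genes of at least 1 CPM on average) and was left out, so that group has n = 2. Levels are CPM, counts scaled to 1 M per library with TMM factors, and error is the SD over replicates. At 6 h, replicate 2 of siControl and of siATF6 went against its glucose labels: 12 ER chaperone genes known as ATF6 targets had a median log2 ratio of 0 over 25 mM of -1.59 and -0.88 there, against 1.29 to 2.02 in the other replicates of these siRNAs. No library was moved, and the tests that use 6 h libraries are given with and without all 6 h libraries of replicate 2. Without them the siATF4 group of 6 h in 0 mM keeps 1 library. Comparisons with that group are then given as effect sizes only. ATF4 mRNA under siATF4 was 190 ± 33.3 CPM at 16 h in 0 mM against 460 ± 36.3 in siControl, but 130 ± 10.5 against 157 ± 19.5 in 25 mM, so the 2 groups in 25 mM differ little in the targeted mRNA. ATF6 mRNA under siATF6 was 15.4 ± 4.99 CPM against 91.0 ± 0.813. The 8 epithelial markers checked were all above 1 CPM on average, and 12 of 14 markers of other cell types were below it, with CD14 at 3.82 and COL1A1 at 14.6 CPM.

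By level, the 9 genes fall into different patterns, and the word late does not describe all of them. PRDM16, LAMP3, RPS6KA2, NMNAT2, UNC5B and PTPDC1 had their highest means at 16 h in 0 mM, in siControl and siATF6, and lower means in all groups of 6 h. UNC5B means at 6 h ran from 1.53 to 2.23 CPM, above the fed means of 16 h at 0.88 to 1.02 CPM. RPS6KA2 in fed siControl cells was 1.41 CPM at 6 h and 0.708 CPM at 16 h. ADM2 and KLHDC7B were already high at 6 h, in 25 mM as well as in 0 mM glucose, and were lowest at 16 h in 25 mM. PLEKHH2 at 6 h differed more between replicate numbers than between glucose groups.

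**Figure D1:**
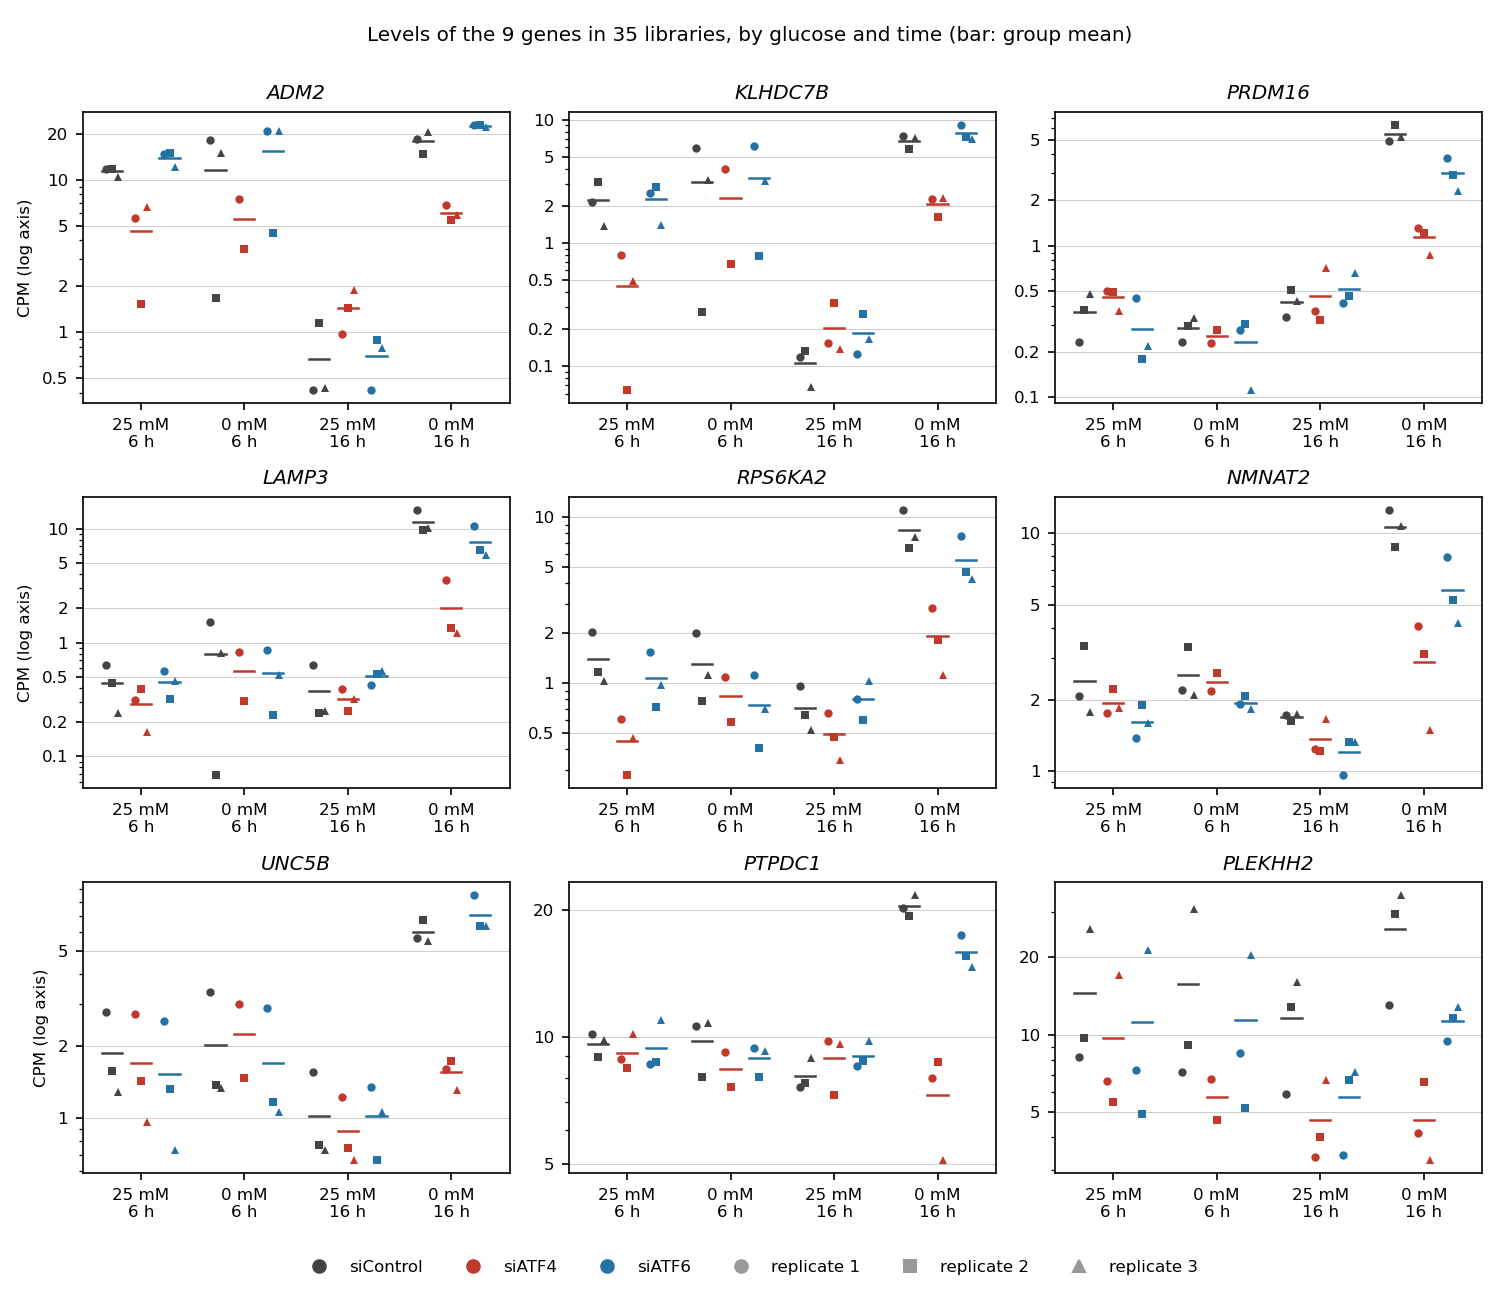
Level of each gene in CPM (log axis) in 35 libraries, by glucose and time; colours are the siRNAs, marker shapes the replicates, bars the group means. PRDM16 stays between 0.112 and 0.711 CPM outside the 0 mM groups of 16 h, while ADM2 lies between 10.4 and 11.8 CPM in siControl at 6 h in 25 mM and between 0.420 and 1.15 CPM at 16 h.

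ADM2, also called intermedin, is the secreted ligand of the group and acts through the calcitonin receptor-like receptor with RAMP proteins. At 16 h in siControl it stood at 0.420, 1.15 and 0.434 CPM in 25 mM and at 18.4, 14.8 and 20.5 CPM in 0 mM. In siATF4 it was 0.972, 1.45 and 1.88 CPM in 25 mM and 6.80, 5.47 and 5.91 CPM in 0 mM. With siATF6 it was 0.420, 0.887 and 0.793 CPM in 25 mM and 22.7, 22.8 and 22.1 CPM in 0 mM. Every deprived library exceeded every fed library of its siRNA, and the deprived siATF4 libraries all lay below the deprived siControl ones. The log2 fold change with deprivation was 4.74 in siControl and 2.07 in siATF4, which chose the gene. In siATF6, whose libraries did not choose it, ADM2 rose by 4.97 ± 0.36 (SE; adjusted p = 7.31e-08, edgeR).
At 6 h ADM2 had 11.8, 11.7 and 10.4 CPM in siControl in 25 mM and 18.2, 1.67 and 15.04 CPM in 0 mM. Under siATF6 the same groups had 14.7, 14.9 and 12.2 CPM and 20.8, 4.47 and 20.7 CPM. Replicate 2 is the low deprived library in both. All 3 fed siControl libraries of 6 h lay far above the 3 fed ones of 16 h. Under siATF4 at 6 h, ADM2 was 5.63, 1.53 and 6.64 CPM in 25 mM and 7.49 and 3.52 CPM in 0 mM, with all 5 libraries below the 3 fed siControl ones.

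KLHDC7B lies 59459 bases from ADM2 on chromosome 22, with other genes between them, and its biochemical function is little known. At 16 h it had 0.1199, 0.132 and 0.0685 CPM in siControl in 25 mM and 7.32, 5.79 and 7.03 CPM in 0 mM. In siATF4 the values were 0.156, 0.324 and 0.138 CPM, and 2.26, 1.62 and 2.33 CPM. In siATF6 they were 0.126, 0.266 and 0.165 CPM, and 9.03, 7.18 and 6.95 CPM. Fed and deprived libraries did not overlap in any siRNA, and the siATF4 deprived libraries lay between them. The log2 fold changes were 5.93 in siControl and 3.32 in siATF4, as described, and 5.34 ± 0.33 in siATF6 (adjusted p = 1.40e-08, edgeR). Fed levels rest on few reads, with as few as 3 counts in a library.
At 6 h in siControl KLHDC7B was 2.16, 3.14 and 1.38 CPM in 25 mM and 5.87, 0.274 and 3.24 CPM in 0 mM. Under siATF4 it was 0.793, 0.0645 and 0.491 CPM in 25 mM and 3.97 and 0.677 CPM in 0 mM. Its fed libraries under siATF4 lay below the 3 of siControl, and the deprived ones overlapped.

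UNC5B, the netrin receptor of the group, was 1.56, 0.772 and 0.731 CPM at 16 h in siControl in 25 mM and 5.66, 6.72 and 5.48 CPM in 0 mM. In siATF4 it was 1.22, 0.749 and 0.665 CPM, and 1.60, 1.73 and 1.31 CPM. In siATF6 it was 1.34, 0.665 and 1.06 CPM, and 8.50, 6.33 and 6.31 CPM. The siControl and siATF6 deprived libraries overlapped, and those of siATF4 lay below both, above their own fed libraries but over the range of the fed siControl ones. UNC5B rose by 2.75 ± 0.32 on the log2 scale in siATF6 (adjusted p = 9.47e-06, edgeR), beside 2.53 in siControl and 0.79 in siATF4. At 6 h its replicate 1 was the highest in all 6 groups, and its levels ran from 0.736 to 3.34 CPM.

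RPS6KA2 encodes RSK3, a kinase downstream of ERK. At 16 h it was 0.960, 0.640 and 0.525 CPM in siControl in 25 mM and 11.0, 6.52 and 7.54 CPM in 0 mM. In siATF4 it was 0.661, 0.474 and 0.344 CPM, and 2.85, 1.82 and 1.12 CPM. In siATF6 it was 0.798, 0.599 and 1.02 CPM, and 7.68, 4.64 and 4.24 CPM. Deprived libraries exceeded fed ones throughout, with replicate 1 the highest deprived library in each siRNA. The rise in siATF6 was 2.74 ± 0.38 (adjusted p = 4.05e-05, edgeR), beside 3.55 in siControl and 1.94 in siATF4. PTPDC1 had the highest floor: in 25 mM at 16 h it was 7.60, 7.77 and 8.88 CPM in siControl, 9.78, 7.29 and 9.59 CPM in siATF4 and 8.52, 8.74 and 9.78 CPM in siATF6. Deprived cells had 20.2, 19.3 and 21.6 CPM in siControl, 7.99, 8.69 and 5.10 CPM in siATF4 and 17.5, 15.6 and 14.6 CPM in siATF6. The deprived siATF4 libraries of PTPDC1 overlapped the fed ones, with a log2 fold change of -0.31, while siControl gave 1.33. In siATF6 PTPDC1 rose by 0.79 ± 0.17 (adjusted p = 0.00200, edgeR), the smallest change among the 8 genes that passed the threshold there.

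NMNAT2 makes NAD from nicotinamide mononucleotide and is known for keeping axons alive. At 16 h it was 1.72, 1.63 and 1.74 CPM in siControl in 25 mM and 12.5, 8.76 and 10.8 CPM in 0 mM. In siATF4 it was 1.25, 1.22 and 1.65 CPM, and 4.06, 3.11 and 1.49 CPM. In siATF6 it was 0.966, 1.33 and 1.32 CPM, and 7.99, 5.22 and 4.20 CPM. One deprived siATF4 library, replicate 3, lay within the fed range. NMNAT2 rose by 2.24 ± 0.31 in siATF6 (adjusted p = 5.07e-05, edgeR), beside 2.65 in siControl and 1.06 in siATF4. LAMP3, a lysosomal glycoprotein first described in mature dendritic cells, was 0.640, 0.243 and 0.251 CPM in fed siControl cells at 16 h and 14.6, 9.79 and 10.2 CPM in deprived ones. Under siATF4 LAMP3 was 0.389, 0.250 and 0.321 CPM, and 3.51, 1.33 and 1.21 CPM. Under siATF6 LAMP3 was 0.420, 0.532 and 0.562 CPM, and 10.5, 6.56 and 5.82 CPM. Deprived exceeded fed in each siRNA without overlap, and replicate 1 was again the highest deprived library. LAMP3 rose by 3.88 ± 0.44 in siATF6 (adjusted p = 6.44e-06, edgeR), beside 4.90 in siControl and 2.62 in siATF4.

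PRDM16, the transcription regulator, was 0.340, 0.507 and 0.434 CPM at 16 h in fed siControl cells and 4.93, 6.25 and 5.21 CPM in deprived ones. In siATF4 it was 0.370, 0.324 and 0.711 CPM, and 1.32, 1.22 and 0.870 CPM. In siATF6 it was 0.420, 0.466 and 0.661 CPM, and 3.80, 2.95 and 2.30 CPM. The 3 deprived groups did not overlap one another: siControl was highest, siATF6 lay between, and siATF4 was lowest. PRDM16 rose by 2.51 ± 0.31 in siATF6 (adjusted p = 1.32e-05, edgeR), beside 3.67 in siControl and 1.26 in siATF4. PLEKHH2, which binds the actin cytoskeleton in kidney podocytes, was 5.92, 12.9 and 16.1 CPM in fed siControl cells at 16 h and 13.1, 29.4 and 34.8 CPM in deprived ones. Under siATF4 PLEKHH2 was 3.35, 4.02 and 6.67 CPM, and 4.17, 6.58 and 3.26 CPM. Under siATF6 it was 3.42, 6.65 and 7.16 CPM, and 9.47, 11.6 and 12.9 CPM. Fed and deprived libraries overlapped in siControl and in siATF4, and did not in siATF6. PLEKHH2 is the gene that missed the threshold in siATF6 (0.95 ± 0.42, adjusted p = 0.0909, edgeR). It passed with DESeq2 (0.98, adjusted p = 0.0486) and in a fit of the siATF6 libraries of 16 h alone (0.99, adjusted p = 0.0204). At 6 h PLEKHH2 ran from 4.69 to 30.9 CPM, and replicate 3 was the highest library in each of the 5 groups that have one, at 17.1 to 30.9 CPM.

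Deprivation in siATF6 at 16 h was tested in libraries that did not choose the genes. It addresses whether the rise in 0 mM glucose is also seen when ATF6, and not ATF4, is silenced. The treatment and time are those in which the genes were chosen, so a rise was likely beforehand. The share of all genes is given for scale and not as support. 8 of the 9 genes rose and none fell, where 15.6% of 18013 genes tested rose and 33.5% changed in either direction. The median log2 fold change was 2.74 for the 9 genes and -0.03 for all genes. All 9 passed the count filter, and each had counts in all 35 libraries. KLHDC7B had only 6, 12 and 10 counts in the fed siATF6 libraries, so it passed the filter through groups where it was higher. Its call is therefore not independent of the filter. In bulk RNA, a change in the share of cells that express a gene and a change per cell cannot be told apart. With each of the 6 siATF6 libraries left out in turn, 8 genes passed.

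**Figure D2:**
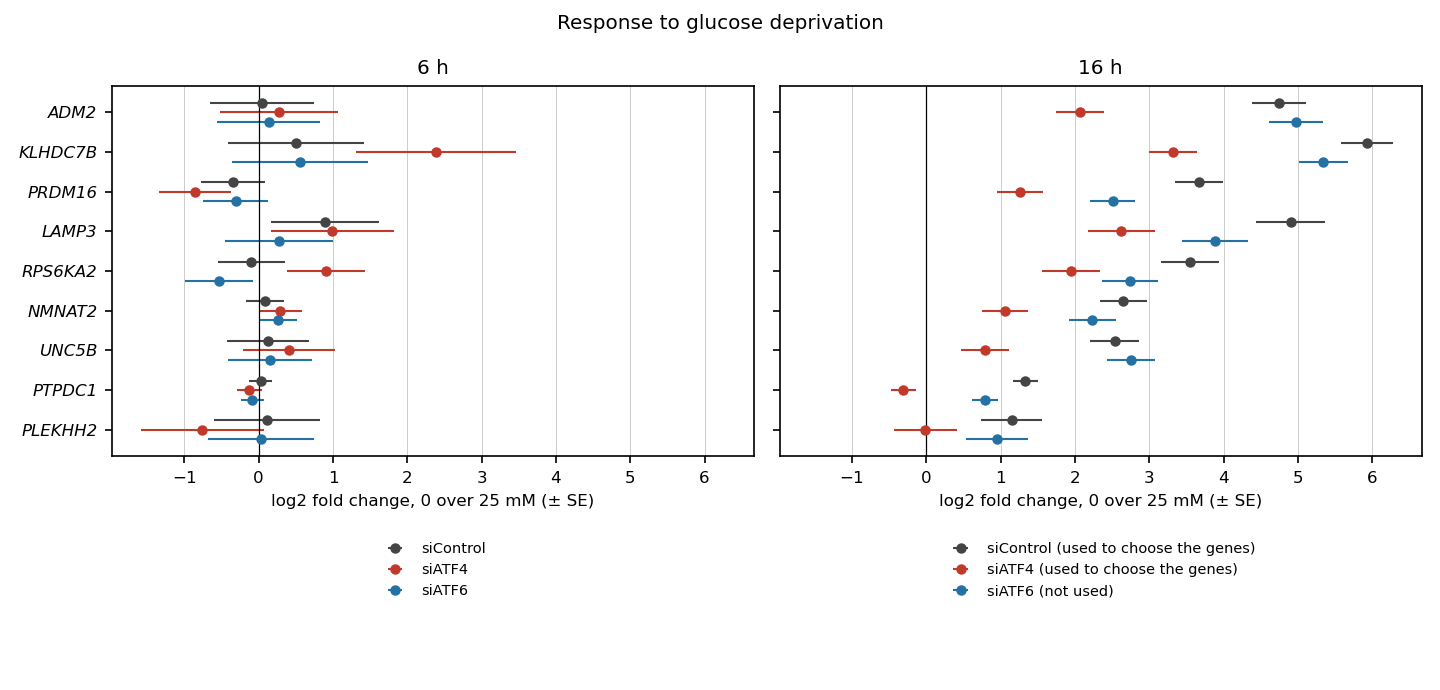
Log2 fold change of 0 over 25 mM glucose (± SE) for each gene at 6 h (left) and 16 h (right), by siRNA. At 16 h the siATF6 values run from 0.79 to 5.34 and the siATF4 values from -0.31 to 3.32; at 6 h the siControl values run from -0.35 to 0.89.

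The comparisons that chose the genes are described for scale. The 9 genes changed by 1.15 to 5.93 on the log2 scale in siControl at 16 h (14.6% of all genes rose) and by -0.31 to 3.32 in siATF4 (14.9% rose). In 0 mM, siATF4 against siControl ran from -1.50 in PTPDC1 to -2.52 in LAMP3 (5.09% of genes fell). The difference between the responses ran from -1.16 in PLEKHH2 to -2.68 in ADM2 (0.161% of genes fell). As shares, the deprived siATF4 mean was 17.5% of the deprived siControl mean for LAMP3, 18.1% for PLEKHH2 and 20.8% for PRDM16. It was 30.9% for KLHDC7B, 33.9% for ADM2 and 35.6% for PTPDC1. Counted from the fed level, siATF4 cells kept 28.3% of the siControl rise of KLHDC7B, 26.9% of that of ADM2 and 13.3% of that of PRDM16, while PLEKHH2 and PTPDC1 did not rise in CPM.
In 25 mM at 16 h, siATF4 differed from siControl by 1.10 for ADM2, 0.90 for KLHDC7B and -1.31 for PLEKHH2 on the log2 scale, and by -0.51 to 0.14 for the other 6 genes (0.0444% of genes were called, 0.0222% higher and 0.0222% lower). For the 9 genes these values are a description without a test.

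The comparison of siATF6 with siControl shares its siControl libraries with those that chose the genes, and its difference from the effect of siATF4 was not tested. The choice favours high values in deprived siControl, which can push siATF6 below siControl in 0 mM and in the difference of responses. The p and calls given here are therefore not independent of the choice. In 0 mM at 16 h, no gene passed the threshold (4.02% of all genes did, 1.11% higher and 2.91% lower), with log2 differences from -1.202 in PLEKHH2 to 0.31 in ADM2. 4 genes had an unadjusted p below 0.05 in edgeR: NMNAT2 (-0.90 ± 0.29, adjusted p = 0.106), PRDM16 (-0.87 ± 0.28, adjusted p = 0.0962), PLEKHH2 (-1.202 ± 0.414, adjusted p = 0.124) and PTPDC1 (-0.38 ± 0.17, adjusted p = 0.250). DESeq2 called 3 of them lower, namely PRDM16, NMNAT2 and PLEKHH2 (adjusted p = 0.0196, 0.0415 and 0.0435). PLEKHH2 passed without siControl replicate 1 (-1.52, adjusted p = 0.0475), and NMNAT2 without siATF6 replicate 1 (-1.19, adjusted p = 0.0414). ADM2, KLHDC7B and UNC5B had means in deprived siATF6 cells of 126%, 115% and 118% of those in siControl, and the other 6 had 43.9% to 77.9%. In 25 mM, none passed (0.749% of genes did, 0.189% higher and 0.561% lower), 1 had an unadjusted p below 0.05 (PLEKHH2, -1.01) and DESeq2 called 0. The difference in deprivation response between siATF6 and siControl passed for no gene of the 9 and for 0% of all genes. PRDM16 (-1.16) and PTPDC1 (-0.54) had an unadjusted p below 0.05 there, and DESeq2 called 18 of 18013 genes, none of them among the 9. A p above the threshold does not show that siATF6 left these genes unchanged.

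**Figure D3:**
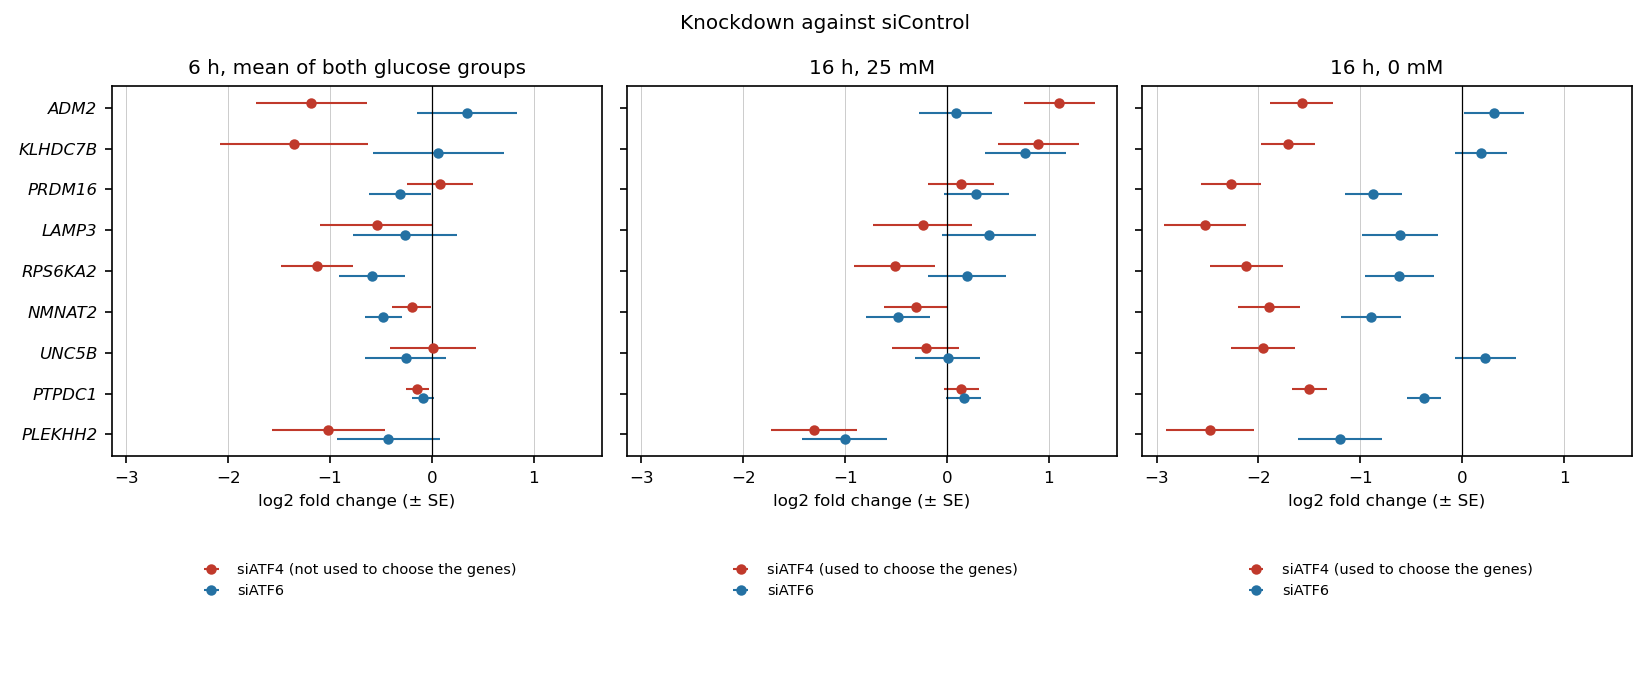
Log2 fold change (± SE) of siATF4 and siATF6 against siControl for each gene at 6 h (mean of both glucose groups) and at 16 h in 25 and 0 mM. In 0 mM at 16 h the siATF4 values, which chose the genes, run from -2.52 to -1.50, and the siATF6 values from -1.202 to 0.31.

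At 6 h no gene of the 9 passed a deprivation test in any siRNA, and neither did any of 18355 genes tested (0% in each). An unadjusted p below 0.05 was found for 0 of the 9 in siControl, 0 in siATF6 and 1 in siATF4 (KLHDC7B, 2.39 ± 1.08, adjusted p = 0.922, edgeR). DESeq2 called 1, 0 and 0 genes of the whole table in siControl, siATF4 and siATF6, none of them among the 9. Without replicate 2, 736 genes of 18799 passed in siControl and 343 in siATF6, and again none of the 9. KLHDC7B stood at 2.63 in siATF4 without replicate 2, where 0 mM keeps 1 library. ADM2 then stood at 0.58 ± 0.15 in siControl (adjusted p = 0.0857) and 0.64 ± 0.15 in siATF6 (adjusted p = 0.0783), and KLHDC7B at 1.37 ± 0.47 and 1.24 ± 0.47 (adjusted p = 0.179 and 0.264). In these siRNAs, replicates 1 and 3 of both genes had more in 0 mM than in 25 mM, by 1.41 to 2.72 times.
Silencing of ATF4 at 6 h, over both glucose groups, is a test the choice of genes did not use. None of the 9 passed it (0.191% of genes did, 0.0708% higher and 0.12% lower). The log2 differences were below 0 for 7 of them, where the median of all genes was -0.006. For siATF6 at 6 h they were also below 0 for 7. The lowest under siATF4 were KLHDC7B (-1.36 ± 0.73, adjusted p = 0.596), ADM2 (-1.18 ± 0.54, adjusted p = 0.501), RPS6KA2 (-1.13 ± 0.35, adjusted p = 0.295) and PLEKHH2 (-1.02 ± 0.55, adjusted p = 0.599). The siATF4 group in 0 mM lacks replicate 3. In siControl in 0 mM that replicate had 30.9 CPM of PLEKHH2, against 7.19 and 9.095 CPM in replicates 1 and 2. The value of PLEKHH2 therefore mixes the siRNA with the replicate number. ADM2 and RPS6KA2 had an unadjusted p below 0.05 in edgeR, and DESeq2 called none of the 9. PRDM16 (0.08), UNC5B (0.01) and PTPDC1 (-0.14) were near 0. Without the 6 h libraries of replicate 2, which leaves siATF4 in 0 mM without replicates, ADM2 stood at -0.998. With the replicate number as a block, RPS6KA2 (-1.16, adjusted p = 0.0043) and PLEKHH2 (-0.604, adjusted p = 0.0467) passed in edgeR. More genes of the whole table passed with the block too. Within 25 mM and within 0 mM alone, none of the 9 and 0% of all genes passed. DESeq2 called 20 and 38 genes there, none of them among the 9. In 25 mM, none of the 9 and 0% of all genes passed without replicate 2 either. With the block, RPS6KA2 passed in 25 mM (-1.65, adjusted p = 0.0413, edgeR), where the share of all genes is not given. RPS6KA2 was 0.605, 0.279 and 0.467 CPM under siATF4 in 25 mM at 6 h, below the siControl values of 2.02, 1.16 and 1.03 CPM in every library.
For siATF6 at 6 h none of the 9 passed (7.28% of all genes did, 3.3% higher and 3.98% lower), and 1 had an unadjusted p below 0.05 (NMNAT2, -0.48 ± 0.18, adjusted p = 0.128). DESeq2 called none of the 9. Without replicate 2 none passed either, and NMNAT2 stood at -0.29 ± 0.14 (adjusted p = 0.316). With the replicate number as a block, RPS6KA2 (-0.604, adjusted p = 0.00978), NMNAT2 (-0.448, adjusted p = 0.018) and PLEKHH2 (-0.435, adjusted p = 0.0345) passed in edgeR. The share of all genes called with the block is not given for this comparison, so these calls have no scale.

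The change of the deprivation response from 6 to 16 h was tested in siATF6. The genes were chosen by their response at 16 h in other libraries, so a larger response at 16 h was likely beforehand. It was larger at 16 h for 8 of the 9 genes, where 6.09% of 19030 genes passed in that direction, 6.6% in the other and 12.7% in either. The difference was 4.86 ± 0.86 on the log2 scale for ADM2 (adjusted p = 0.000446, edgeR) and 4.81 ± 1.09 for KLHDC7B (adjusted p = 0.00395). It was 2.85 ± 0.51 for PRDM16 (adjusted p = 0.000482) and 0.90 ± 0.23 for PTPDC1 (adjusted p = 0.00912). PLEKHH2 did not pass (0.95 ± 0.88, adjusted p = 0.538). Without the 6 h libraries of replicate 2, the same number of genes passed, 8 of 9, with 4.37 for ADM2 and 4.15 for KLHDC7B. With the failed library kept in the fit, none passed, at adjusted p of 0.0517 for ADM2 and 0.448 for NMNAT2 and with nearly the same fold changes. In siControl, whose 16 h libraries chose the genes, the difference ran from 1.04 for PLEKHH2 to 5.43 for KLHDC7B (8.62% of genes were called, 4.09% higher and 4.53% lower).

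The same larger difference came from different groups in different genes. Time was compared within each glucose group in siATF6, a comparison added after the levels at 6 h had been seen. In 25 mM, ADM2 fell from 6 to 16 h (-4.31 ± 0.67, adjusted p = 0.000627) and KLHDC7B fell (-3.61 ± 0.84, adjusted p = 0.0209), and the other 7 genes did not pass (2.07% of genes changed, 1.19% lower). In 0 mM the same pair did not pass (0.55, adjusted p = 0.546, and 1.198, adjusted p = 0.247). PRDM16 (3.68), LAMP3 (3.79), RPS6KA2 (2.87), UNC5B (2.04), NMNAT2 (1.58) and PTPDC1 (0.84) rose in 0 mM, 6 of the 9, where 8.59% of genes were higher. PLEKHH2 stood at -0.01 there (adjusted p = 0.997). Without the 6 h libraries of replicate 2, 2 genes passed in 25 mM, ADM2 (-4.26) and KLHDC7B (-3.42), and 6 passed in 0 mM. The call for KLHDC7B in 25 mM was lost when any of 5 of the 6 libraries was left out, namely the 3 of 16 h (adjusted p = 0.101, 0.0823 and 0.118) and replicates 1 and 2 of 6 h (0.0528 and 0.0657). That for ADM2 held without each of the 6. ATF4 mRNA itself was 415 ± 42.6 CPM at 6 h and 204 ± 32.9 CPM at 16 h in these fed siATF6 cells (-1.03, adjusted p = 0.0163) and 429 ± 85.8 and 578 ± 27.1 CPM in deprived ones (0.43, adjusted p = 0.209). Its part in the levels of ADM2 and KLHDC7B was not tested.

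Ordered by mean level over the 12 groups, deprived siControl cells of 16 h came first for 6 genes (PRDM16, LAMP3, RPS6KA2, NMNAT2, PTPDC1 and PLEKHH2). Deprived siATF6 cells of 16 h came first for ADM2, KLHDC7B and UNC5B. Most neighbours in the order had overlapping replicates: 7 of 11 steps in NMNAT2, 8 in ADM2 and in PRDM16, 9 in PTPDC1, 10 in KLHDC7B, LAMP3, RPS6KA2 and UNC5B, and all 11 in PLEKHH2. Per kilobase of transcript in deprived siControl cells of 16 h, PTPDC1 had the highest level at 5.41 CPM per kb, then ADM2 at 4.20, PLEKHH2 at 4.13 and LAMP3 at 3.60. In the same cells PRDM16 had 1.07 and UNC5B 0.897 CPM per kb, and in deprived siATF6 cells, where UNC5B was highest, it had 1.06 CPM per kb.

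Other genes of the 9 pathways were counted in the same comparison, deprivation in siATF6 at 16 h. There 15.6% of 18013 genes tested rose and 17.9% fell. The counts include the chosen gene of each list, and no list was tested against all genes. Of 11 adrenomedullin peptides and receptors 7 were tested, 4 rose and 1 fell. Beside ADM2, the genes of both calcitonin gene-related peptides rose, CALCB from 0.0765 ± 0.0775 to 0.978 ± 0.0952 CPM and CALCA from 0.00551 ± 0.00954 to 0.260 ± 0.213 CPM, levels too low for a fold, and ADM5 fell by 1.25 on the log2 scale. The fourth to rise was ADM (0.95). ADM and the receptor genes CALCRL and RAMP2 are named here after their values were seen. Neither receptor gene passed: CALCRL stood at -0.03 and RAMP2 at -1.47 (adjusted p = 0.968 and 0.0971). In the list of netrin receptors and ligands, UNC5B and the ligand NTN4 (1.31, adjusted p = 3.02e-05) rose out of 10 tested. NTN4 had 89.7 ± 3.20 CPM in fed and 227 ± 27.9 CPM in deprived siATF6 cells.
Among 9 kinases of the RSK and MAP kinase list, RPS6KA2 rose and 3 fell: RPS6KA1 (-0.94), RPS6KA4 (-0.44) and MAPK3 (-0.51), the last encoding ERK1. RPS6KA1, which encodes the related kinase RSK1, was at 33.4 ± 1.23 CPM in fed and 17.7 ± 2.19 CPM in deprived siATF6 cells. PTPDC1 and 2 of the other 6 phosphatases in its list rose, PTP4A3 (1.73) and PTP4A1 (0.49). NMNAT2, the nicotinamide riboside kinase NMRK1 (0.71) and the NAD kinase NADK (0.25) rose among 11 genes of NAD synthesis and cleavage, and the NAD hydrolase SARM1 stood at -0.49 (adjusted p = 0.0505). LAMP3 was the 1 of 5 LAMP family genes to pass. LAMP5 stood at 2.16, CD68 at 0.84 and LAMP2 at 0.32 (adjusted p = 0.0857, 0.137 and 0.176).
PRDM16, CEBPB (2.06), PPARG (0.64) and CTBP2 (0.51) rose among 7 tested genes of PRDM16, its paralogue and its partners, and 1 fell, EHMT1 (-0.34), named after its values were seen. KLHDC7B and KLHDC2 (0.71) rose among 10 KLHDC genes and 3 fell, with KLHDC7A at -1.76 and KLHDC8B at -1.37. The third was KLHDC3 (-0.68), named after its values were seen. PLEKHH3 fell (-0.67), and PLEKHH1 stood at -0.59 (adjusted p = 0.0695).

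**Figure D4:**
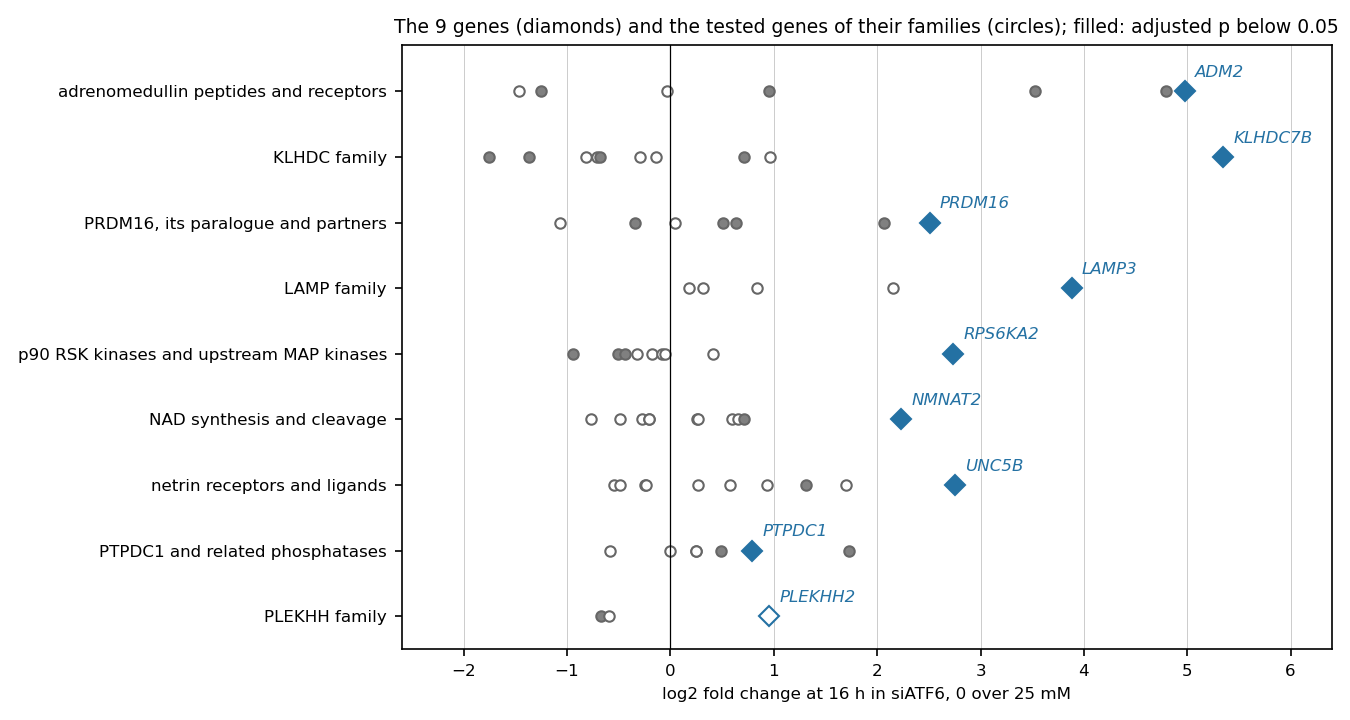
Log2 fold change of 0 over 25 mM glucose in siATF6 at 16 h for the 9 genes (diamonds) and the tested genes of each one's list (circles), filled where the adjusted p is below 0.05. In the LAMP list LAMP3 at 3.88 is the 1 filled marker, and in the phosphatase list PTP4A3 at 1.73 lies to the right of PTPDC1 at 0.79; the values of CALCA and CALCB rest on few counts and give no rank.

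The wider ATF4 targets gave the scale for these changes. Of 25 tested ATF4 targets outside amino acid metabolism, none of them among the 9, 24 rose and 1 fell (ATF5, -0.68, named after its values were seen), with a median of 2.06. They include HERPUD1 (3.67), the apoptosis-linked factor DDIT3 (5.58), the pseudokinase TRIB3 (3.24) and CEBPG (1.75). Of 21 amino acid genes 19 rose, with a median of 1.08, among them MTHFD2 (1.94), GOT1 (2.13), GPT2 (1.05) and SLC1A4 (1.29). Of 12 ATF6 targets of the ER 12 rose, with a median of 2.03, although ATF6 was silenced. All genes had a median of -0.03, and 15.6% of them rose and 17.9% fell. The differences between these lists and the 9 genes were not tested. At 6 h under siATF4 the medians were -0.37, -0.52 and -0.50 in the same order, with no call in any of the 3 lists, and -0.54 for the 9 genes.

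Genes most like the 9 were sought by Pearson correlation of log2 CPM over 35 libraries among 13883 genes of at least 1 CPM on average. The correlations describe libraries that share their groups, so they carry no p. Nearest to the mean profile were CCPG1 (r = 0.971), known as an ER-phagy receptor, CLCN3 (0.951), TLCD2 (0.947), MIA2 (0.946) and MOCOS (0.945). CCPG1 was 92.6 ± 3.16 CPM in fed and 358 ± 19.4 CPM in deprived siControl cells at 16 h, and 156 ± 42.1 CPM in deprived siATF4 cells. For single genes the nearest were CARS1 for ADM2 (0.987), TES for KLHDC7B (0.962), PRPH for PRDM16 (0.926), ALPK1 for PTPDC1 (0.890) and SGTB for LAMP3 (0.965). They were LAMP3 for RPS6KA2 (0.961), MOCOS for UNC5B (0.902), PLEKHG1 for NMNAT2 (0.950) and CYP4F3 for PLEKHH2 (0.897). CARS1 is a cytosolic aminoacyl-tRNA synthetase, so the gene closest to ADM2 is one of amino acid metabolism.
Within the 9, ADM2 and KLHDC7B correlated at 0.929, and LAMP3 with RPS6KA2 and PRDM16 at 0.961 and 0.923. ADM2 and PRDM16 correlated at 0.372, and UNC5B and PLEKHH2 lowest of all pairs, at 0.255. With ATF4 mRNA the correlation was 0.855 for KLHDC7B, 0.830 for ADM2 and 0.383 for PRDM16, the last being the lowest of the 9.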

How the data were processed

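Poly(A) RNA of A549 cells was sequenced as non-stranded 150 bp read pairs, per the labels' protocols. The authors deposited expected counts per gene. fastp, STAR, RSEM and the build GRCh38 are named in the submitters' processing notes, and for the gene annotation no release is named there. Because strand was not kept, overlapping antisense genes cannot be told apart. The expected counts were rounded to whole numbers. Genes passed filterByExpr (minimum count 10, minimum total 15) and were tested with edgeR 4.0.16 (R 4.3.3; TMM factors, robust quasi-likelihood test), with Benjamini-Hochberg adjustment over all genes tested and a threshold of 0.05. The fits used the 18 libraries of 16 h (18013 genes), 17 of 6 h (18355 genes) or 35 across times (19030 genes). The SE is the absolute log2 fold change divided by the square root of F. Group and replicate came from the sample titles. The labels call replicates biological, without saying what separates them. Alternatives were DESeq2 1.42.0, other size factors, no filter, other sets of libraries, the replicate number as a block and each library left out. The tests were checked on simulated data with set changes of 1.5, 2 and 4 times. Deprivation in siATF6 at 16 h recovered 11.8%, 35% and 87.1% of them. Silencing of ATF4 at 6 h over both glucose groups recovered 45.7%, 73.2% and 92.6%. The change of response with time in siATF6 recovered 5.63%, 25.9% and 59.5%. A gene that did not pass may thus still have changed by 2 times. The 9 genes and all gene lists were chosen with earlier results of these data known, so no p is adjusted over a list. The genes named from other lists are up to 4 per list with the smallest p, the 5 most alike in profile and the nearest to each of the 9.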

Additional observations from a re-analysis of the deposited data

Results flagged for a closer look

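The deprivation response in siATF6 differed between 6 and 16 h, by the test of the difference itself (edgeR, adjusted over 19030 genes), for 8 of the 9 genes. Of all genes, 6.09% passed with a larger value at 16 h, 6.6% with a smaller one and 12.7% in either direction. The 9 genes were chosen by their response at 16 h in other libraries, so a larger response there was likely beforehand. With the failed library kept in the fit, none of the 9 passed. The difference in log2 fold change, 16 h minus 6 h, was 4.86 for ADM2, 4.81 for KLHDC7B, 3.63 for LAMP3, 3.29 for RPS6KA2, 2.85 for PRDM16, 2.63 for UNC5B, 2.00 for NMNAT2 and 0.899 for PTPDC1. The 6 h libraries of replicate 2 that went against their glucose labels enter these values, and without them the differences were 4.37, 4.15, 3.47, 3.24, 3.29, 2.52, 1.92 and 0.883 in the same order.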

How the results depend on the processing

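Deprivation in siATF6 at 16 h kept its 8 genes without each library in turn and under both other size factors, and 9 passed with DESeq2, with the replicate block and with the libraries of the groups compared alone. With all 36 libraries in 1 fit, which adds the failed one, 0 genes passed the change of response with time in siATF6, 0 and 2 passed 16 against 6 h in siATF6 in 25 and 0 mM, 4 passed deprivation in siATF4 at 6 h (KLHDC7B, LAMP3, RPS6KA2 and NMNAT2), and 1 passed siATF4 against siControl at 6 h in 0 mM, NMNAT2, which turned from -0.09 to 1.94 (adjusted p = 0.0206). For the comparisons across times that fit adds the failed library alone; for those at 6 h it also adds the libraries of 16 h. Without a filter, 1 gene passed 16 against 6 h in siATF6 in 25 mM. DESeq2 called 3 genes lower in siATF6 than in siControl at 16 h in 0 mM. The siControl libraries of that comparison chose the genes, so these calls are not independent of the choice. Without the 6 h libraries of replicate 2, the siATF4 group of 6 h in 0 mM keeps 1 library, so no count is given for comparisons with that group. With single libraries left out, siATF6 against siControl at 16 h in 0 mM ranged from 0 to 1 genes and 16 against 6 h in siATF6 in 25 mM from 1 to 2. The described median of deprivation in siATF4 at 16 h ranged from 1.06 to 1.69. Where no cause is given, the cause was not tested.
The replicate numbers do not pair the samples by the rule used, which asks for r above 0.1 in every same-numbered pair, so the main tests hold no block. Same-numbered libraries deviated together (r above 0.1) in 35 of 40 pairs at 6 h and 41 of 45 at 16 h, with lowest r of -0.187 and -0.58. The exceptions were all of replicate 2 at 6 h, and at 16 h all held the siATF4 group in 0 mM. Same-numbered pairs had a median r of 0.534 and 0.501, against -0.295 and -0.404 for other pairs, a hint from the data and not the design. These are deviations from group means, which cancel within a group. Negative r in other pairs therefore follows in part from positive r in same-numbered ones and is no separate contrast. With the replicate block, 1 gene passed siATF4 against siControl at 6 h in 25 mM (RPS6KA2, -1.65, adjusted p = 0.0413) and 2 over both glucose groups (RPS6KA2, -1.16, adjusted p = 0.0043, and PLEKHH2, -0.604, adjusted p = 0.0467). With it 2 passed siATF6 against siControl at 16 h in 0 mM (NMNAT2 and PLEKHH2) and 3 at 6 h (RPS6KA2, NMNAT2 and PLEKHH2), all lower. The deprived siControl libraries of 16 h chose the genes, so the 2 calls at 16 h are not independent of the choice. For siATF4 in 25 mM and for siATF6, both at 6 h, the share of all genes called with the block is not given. Over all genes, the block moved siATF4 against siControl at 6 h from 35 to 436 calls and siATF6 against siControl at 16 h in 0 mM from 725 to 1836, and DESeq2 gave 215 and 1569. Values that passed no threshold changed sign in some settings, most often for deprivation in siControl at 6 h (21 of 126 values). Depth limits KLHDC7B and LAMP3 most, with as few as 3 counts in a library.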

Other observations

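Within 100 kb of ADM2 or KLHDC7B on chromosome 22 lie 19 other genes, of which 15 were tested for deprivation in siATF6 at 16 h: 6 rose, 1 fell and 8 did not pass. Of all genes tested, 15.6% rose and 17.9% fell, and an effect of the region was not tested. Several overlap one another, and reads kept without strand cannot be told apart there. ODF3B, 43270 bases from ADM2, rose by 1.81 on the log2 scale (adjusted p = 3.90e-05, edgeR), and the noncoding RNA U62317.1 rose by 2.63 (adjusted p = 0.00349) at a mean of 0.126 CPM. CHKB (0.96, adjusted p = 0.000833), TYMP (0.83, 0.0304), ARSA (0.54, 0.0184) and MAPK8IP2 (0.42, 0.0183) rose too, and SCO2 fell (-0.62, 0.0407). SBF1, which ends 6508 bases before ADM2, stood at -0.09 (adjusted p = 0.522), and PPP6R2 at -0.08 (adjusted p = 0.636). MIOX begins 344 bases after ADM2 and stood at 3.06 (adjusted p = 0.0875) with a mean of 0.0682 CPM.
The failed library, siATF4 in 0 mM at 6 h, replicate 3, had 0 counts of ADM2, PRDM16 and PLEKHH2, which allows up to 1.05 CPM, counting error only. It had 280 counts of KLHDC7B, 258 of NMNAT2, 169 of RPS6KA2, 142 of UNC5B, 90 of LAMP3 and 50 of PTPDC1.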
